A study of Mus musculus with 74 samples.

Results

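The 10 genes described here encode surface proteins and kinases of the antigen receptor complexes of lymphocytes. For T cells they are Cd2, Cd3e, Cd3g, Cd4, Cd5 and Lck, and for B cells Cd22, Cd79a, Cd79b and Blk. They were taken by gene symbol from RNA-seq gene tables that together hold group means for 22079 symbols, and they were chosen by earlier values of these data, so that their ratios are given as a description with no test. Each table sets lung metastases (Lung met) against primary mammary tumors (PT) of 1 mouse model. The tables hold 1 normalized mean per tissue and no value per sample, so that no replicate error can be given and no difference between tissues could be set against the spread between animals.

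All 74 labelled samples came from tumors driven by a transgene, and all animals were female. In the FVB models the MMTV promoter, which acts mainly in mammary epithelium, drove Her2 (the rat neu gene) or Myc, and the C3(1) promoter drove the SV40 T antigen in C3Tag mice. In the PyMT-F1 models FVB males carrying MMTV-PyMT were crossed to BALB, SEAGN or AKR females. Each model had 6 PT and 6 Lung met samples by title, except C3Tag with 7 and 7. In Her2, Myc and C3Tag mice with a single lesion the primary tumor was removed by surgery and the animals were aged further, whereas PyMT animals kept their tumors until the endpoint, and all primary tumor tissue of a mouse was combined. The genotype labels of 23 of the 36 PyMT-F1 samples name another strain than their titles, and which samples entered each PyMT-F1 mean is not settled by the sources used here.

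The table deposited under AKR goes against its name. Its Lung met over PT quotients were the same, within 0.5%, as a column headed BL6 in a supplementary workbook of pathway genes for 268 of 271 genes. For the other strain columns of that workbook at most 8 genes were the same. The BALB and SEAGN tables matched the columns of their own names at 235 of 235 and 213 of 214 genes. The study also crossed the PyMT males to C57BL/6 females, for which BL6 is a common abbreviation, but no labelled sample is named BL6. This table is therefore called here the AKR-named table, its number of samples is not known, and its values are not read as AKR values.

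T cells recognize antigen through a receptor whose variable chains have no signaling tail of their own. The CD3 chains, among them CD3 epsilon (Cd3e) and CD3 gamma (Cd3g), carry the signal across the membrane, the co-receptor CD4 binds MHC class II and brings the kinase LCK to the complex, and CD2 and CD5 are surface glycoproteins that adjust the response. In B cells the membrane immunoglobulin is paired with CD79A and CD79B, which signal through kinases of the LYN and BLK type, and CD22 is a lectin receptor that restrains the signal. These genes are used to follow lymphocytes in bulk tissue, but in bulk RNA fewer cells of a type and less RNA per cell cannot be told apart. Whole metastases were used, so lymphocytes within the tumor and those of the lung around it cannot be told apart either.

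Many lymphocyte genes have sequences in their promoters that ETS factors such as ETS1 and PU.1 can bind. The letters AGGAAG, a form of such a sequence, are called the core here. On the opposite strand the core reads CTTCCT. The stretches below show the core, in capitals, upstream of members of both receptors. They are read 5′ to 3′ on the gene strand from RefSeq promoter windows on GRCm38.p6, which run from 250 bases before to 50 after the transcription start. Windows were at hand for 6 of the 10 members (7 windows, since Lck has a distal and a proximal start), and the core stood in 5 of these windows, belonging to 4 members. The windows of Cd22 and Cd3g did not hold these letters, and other forms of such a sequence were not searched.
Cd3e (chr9:45009611-45009640, minus strand, core from base -17): gtcccctctacaCTTCCTgtgtggggttca
Cd5 (chr19:10739009-10739038, minus strand, core from base -52): ggtttcacagggAGGAAGttgacagttcaa
Cd79a (chr7:24897430-24897459, plus strand, core from base -55): gcacggctgaacAGGAAGtgaggcggagtt
Lck (chr4:129573634-129573663, minus strand, core from base -10): ccctcaggagacAGGAAGtcagggtggaac
Lck (chr4:129558469-129558498, minus strand, core from base -114): agctggggcggcAGGAAGtgggtaactaga
The same 6 letters on either strand were present in 35.4% of all 32851 promoter windows of this length, so a match is a description of the letters and not a sign of binding.

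On GRCm38 the CD3 members lie close together on chromosome 9, Cd3g at 44969572 to 44980431 and Cd3e at 44998740 to 45009627, both on the minus strand. Cd22 (30865402 to 30880342) and Cd79a (24897381 to 24902197) share chromosome 7. The other members lie apart, Cd2 on chromosome 3, Lck on chromosome 4, Cd4 on chromosome 6, Cd79b on chromosome 11, Blk on chromosome 14 and Cd5 on chromosome 19. No annotated protein-coding gene overlapped any of the 10, so none of them shared exons with a protein-coding neighbor in this annotation.

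Group means were listed for 29 of the 50 pairs of a member and a table. The AKR-named table listed 9 members, C3Tag 7, Her2 6, SEAGN 4 and BALB 3. Cd4 and Lck had means in all 5 tables with means, whereas Blk had them only in the AKR-named table and Cd79a only in C3Tag. Cd22 had a row with empty cells in the BALB table. The Myc table holds no means. It has a row for Cd2, Cd3e, Cd3g, Cd4, Cd5, Lck and Cd22 and none for Cd79a, Cd79b and Blk, so no level or ratio is given for Myc. The filter that decided which genes were listed is not given in the sources used here, and an absent row is not a level of 0. Members were found by symbol, and 2671 rows with means in BALB and 2684 in SEAGN carried no symbol. Her2, C3Tag and the AKR-named table had 8, 13 and 11 such rows. Whether unlisted members stand among these rows was not tested.

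The Lung met mean was above the PT mean in 23 of the 29 pairs. In 13 pairs it was at least 2-fold higher, and in 0 pairs at least 2-fold lower. Of the 13, 8 were in the AKR-named table. The 9 members listed there spanned quotients from 1.46 to 7.57, and in the other 4 tables the highest quotient of any member was 2.76. The share of all genes above their PT mean was not counted. The median log2 ratio over all genes lay between -0.0013 and 0.030 in these tables. The pairs repeat the same genes over the tables, so they are not independent, and nothing is read from their number.

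**Figure D1:**
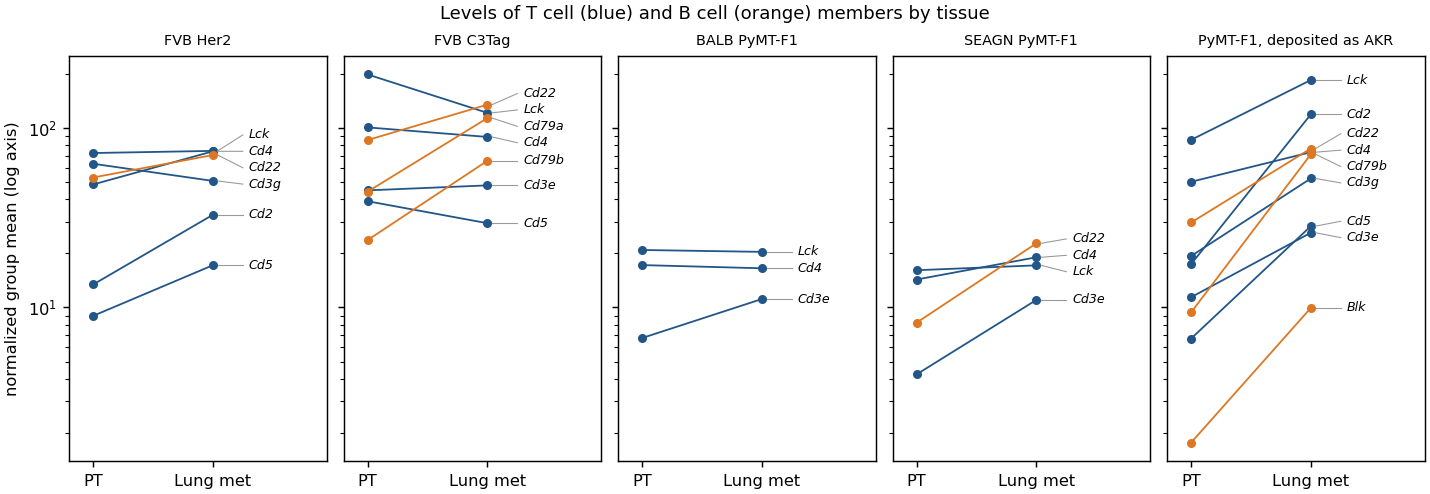
Normalized group mean (log axis) of each listed member in PT and Lung met, 1 panel per table, with T cell members in blue and B cell members in orange. Each point is 1 mean with no error available, lines join the 2 tissues of a gene, the tables were normalized separately so that heights are read only within a panel, and the lines of the AKR-named panel all climb, from 1.77 to 9.95 for Blk at the bottom and from 85.6 to 184 for Lck at the top.

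The listed CD3 chains were both higher in Lung met in the AKR-named table. Cd3e, needed for assembly of the receptor, had a mean of 11.4 in PT and 26.0 in Lung met, a 2.28-fold difference (log2 1.19). Cd3g had means of 19.3 and 52.2, also higher in Lung met (log2 1.43). Both CD3 chains were thus past 2-fold in this table.

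Elsewhere the CD3 chains varied. Cd3e was 2.59-fold higher in Lung met in SEAGN, from a low mean of 4.25 in PT to 11.0 (log2 1.37), and moved from 6.76 to 11.1 in BALB (log2 0.72). In C3Tag its means of 44.8 and 47.8 were nearly level (log2 0.09), and Her2 listed no Cd3e. Cd3g was lower in Lung met in Her2, at 63.0 in PT and 50.6 in Lung met (log2 -0.32), the opposite direction to the AKR-named table.

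The co-receptor Cd4 was the exception among the members in the AKR-named table. Its means of 50.0 and 73.1 gave a 1.46-fold difference (log2 0.55), below the 2-fold line that the other 8 listed members passed. In Her2 it had means of 48.3 and 73.9 (log2 0.61), a ratio like that in the AKR-named table. Cd4 was listed at 14.3 and 19.0 in SEAGN (log2 0.41), at 17.2 and 16.5 in BALB (log2 -0.06) and at 100 and 88.8 in C3Tag (log2 -0.18). Cd4 was thus within 2-fold of its PT mean in all 5 tables.

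Lck, the kinase that phosphorylates the CD3 chains, was listed in all 5 tables and was past 2-fold only in the AKR-named one. There its means were 85.6 in PT and 184 in Lung met, a 2.15-fold difference (log2 1.11). In Her2 (72.3 and 74.3, log2 0.04), SEAGN (16.1 and 17.1, log2 0.09) and BALB (20.9 and 20.4, log2 -0.03) the tissues were nearly level. In C3Tag Lck was lower in Lung met, at 198 in PT and 121 in Lung met (log2 -0.71), the lowest ratio of any member in any table.

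The surface receptors Cd2 and Cd5 had the highest ratios among the T cell members in the AKR-named table and in Her2. Cd2, an adhesion receptor that natural killer cells also carry, had means of 17.4 in PT and 119 in Lung met in the AKR-named table, a 6.81-fold difference (log2 2.77). In Her2 it was also higher in Lung met, 13.4 against 32.8 (2.44-fold, log2 1.29), and the other 3 tables with means did not list it. Cd5, a negative regulator of the receptor found on T cells and some B cells, was 4.22-fold higher in the AKR-named table, from 6.72 to 28.3 (log2 2.08). It was at 8.98 and 17.2 in Her2 (1.91-fold, log2 0.94) and at 39.0 and 29.4 in C3Tag (log2 -0.41). Her2 and the AKR-named table therefore shared the direction of Cd2 and Cd5 and differed in that of Cd3g.

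**Figure D2:**
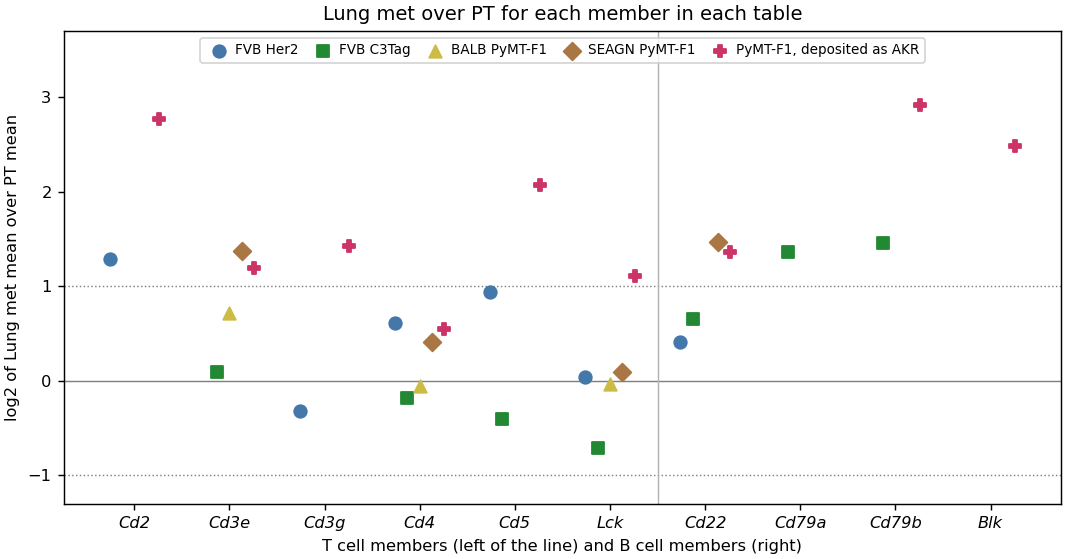
Log2 of the Lung met mean over the PT mean for each member (horizontal axis), 1 symbol per table, with dotted lines at a 2-fold difference in either direction. Each symbol is a quotient of 2 means with no error available, a missing symbol means no listed mean, and 8 of the 9 symbols of the AKR-named table lie above the upper line while no symbol lies below the lower one.

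The B cell members lay higher in Lung met wherever they were listed, although Cd22 in C3Tag turned to a log2 ratio of -0.06 when the ratios were centered on the leukocyte genes. Cd79b, a signaling chain of the B cell receptor, had the highest ratio of all members, with means of 9.40 and 71.2 in the AKR-named table (7.57-fold, log2 2.92). It was 2.76-fold higher in C3Tag, at 23.7 and 65.4 (log2 1.46). Its partner Cd79a was listed only in C3Tag, at 44.1 and 113 (2.56-fold, log2 1.36), so both chains of the pair were past 2-fold in that table.

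Blk, a SRC-family kinase of B cells, had means of 1.77 and 9.95 in the AKR-named table, 5.61-fold higher in Lung met (log2 2.49). Its PT mean was the lowest of any member, and with a pseudocount of 1 its log2 ratio was 0.51 smaller. Cd22 was listed in 4 tables with means. It was 2.76-fold higher in SEAGN (8.23 and 22.7, log2 1.47), 2.58-fold in the AKR-named table (29.7 and 76.6, log2 1.37), 1.57-fold in C3Tag (85.4 and 134, log2 0.65) and 1.33-fold in Her2 (52.8 and 70.5, log2 0.42). Of the 4 members that SEAGN and the AKR-named table both list, Cd3e, Cd4 and Cd22 thus had like ratios in them, and Lck did not.

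In C3Tag the listed members of the different lineages went different ways. The 3 B cell members had a median log2 ratio of 1.36, and the 4 T cell members one of -0.29, with 3 of these 4 lower in Lung met. In Her2 the medians were 0.61 for 5 T cell members and 0.42 for the single B cell member. In the AKR-named table they were 1.31 for 6 and 2.49 for 3. For SEAGN they were 0.41 for 3 and 1.47 for 1, and in BALB the 3 T cell members had a median of -0.03. The median over all genes lay between -0.0013 and 0.030 in the 5 tables, so the tables were centered near 0.

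The share of all genes past the same fold gives the background for these counts. Of the genes of the AKR-named table, 7.31% were at least 2-fold higher in Lung met and 1.73% at least 2-fold lower, beside 8 and 0 of 9 members. Among the 5296 genes of that table with means in the members' range 14.3% were at least 2-fold higher. In the members' range of the other tables the share was 5.38% in Her2, 11.9% in C3Tag, 3.89% in BALB and 6.54% in SEAGN. In C3Tag the shares were 7.42% higher and 1.70% lower, beside 2 and 0 of 7 members. In Her2 they were 2.38% and 1.43%, beside 1 and 0 of 6. SEAGN had 2.86% and 3.22%, beside 2 and 0 of 4 members, and BALB 2.26% and 2.40%, beside 0 and 0 of 3. At a fold of 1.5 the shares of genes higher in Lung met were 5.42% in Her2, 14.0% in C3Tag, 6.20% in BALB, 7.11% in SEAGN and 13.6% in the AKR-named table, and 5.61% of genes in C3Tag were at least 1.5-fold lower, as was 1 member, Lck. Since the members were chosen by these ratios, nothing is read from the counts.

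Members were ranked by level only after division by exon length, within a table. In PT of the AKR-named table Lck was the most abundant member, with a normalized mean of 29.2 per kb of exon, before Cd4 (12.4) and Cd2 (10.0). In Lung met of the same table Cd2 (68.2 per kb) and Lck (62.9) led, followed by Cd79b (49.7), and Blk was lowest (3.69). In Lung met of C3Tag Cd79a led with 77.6 per kb, before Cd79b (45.7) and Lck (41.3), whereas in PT Lck (67.5) had led. Lck was the most abundant listed member in PT in all 5 tables, and in Lung met it kept that place in Her2, BALB and SEAGN. No spread between animals is available for these orders. Exon lengths were those of GENCODE M21, and BALB and SEAGN were counted on a BALB/cJ annotation, so their per-kb values rest on another gene model.

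Other genes of the T cell receptor pathway (26 receptor chains, co-receptors, adaptors and transcription factors) had their highest median in the AKR-named table too. It listed 21, with 13 at least 2-fold higher in Lung met and 0 at least 2-fold lower, with a median log2 ratio of 1.37. Icos, a costimulatory receptor, had means of 3.00 and 21.7 (7.25-fold). The constant regions of the receptor beta chain, Trbc2 (25.8 and 101) and Trbc1 (6.06 and 23.7), were 3.92-fold and 3.91-fold higher. These constant regions are close copies of each other, so reads may be split between them. Cd8a, the co-receptor of cytotoxic T cells, went the other way there, at 30.6 in PT and 22.6 in Lung met (log2 -0.44). It is named after its values were seen, as the only listed gene of the 21 with a lower mean in Lung met.

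In Her2 1 of 20 listed genes of that list was at least 2-fold higher, Cd247, the zeta chain of the receptor, at 10.0 and 27.4 (2.73-fold). Next came the surface receptor Cd6 (1.96-fold), the transcription factor Tcf7 (1.92-fold) and the adaptor Lat (1.78-fold), and the median log2 ratio of the 20 was 0.45. In C3Tag 0 of 18 were at least 2-fold higher and 2 at least 2-fold lower. Bcl11b, a factor of T cell identity that mammary epithelium also expresses, had means of 394 and 148 (0.376-fold), and Cd8b1 had means of 16.5 and 7.06 (0.428-fold). Cd8a (33.8 and 18.9, 0.559-fold) was lower too, the adaptor Lcp2 was higher (1.61-fold), and the median of the 18 was -0.29.

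BALB listed 9 of these genes, 1 at least 2-fold higher, with a median log2 ratio of 0.26. Its named genes stayed within 2-fold, from Bcl11b (0.706-fold) and Ets1 (0.834-fold) to Lcp2 (1.20-fold) and Tcf7 (1.22-fold). SEAGN listed 13, with 2 at least 2-fold higher, 1 at least 2-fold lower and a median of 0.08. The lower one was Bcl11b, at 202 and 77.3 (0.382-fold). Tcf7 (0.711-fold) and the kinase Fyn (0.721-fold) were lower as well, and Prkcq, a kinase of the T cell synapse, was at 9.03 and 15.2 (1.69-fold).

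Other genes of the B cell receptor pathway (also 26) had a median log2 ratio in the AKR-named table within the range of the other tables. There 4 of 16 listed genes were at least 2-fold higher and the median was 0.15, beside medians of 0.09 in Her2, 0.42 in C3Tag, 0.11 in BALB and 0.51 in SEAGN. Cd37, a tetraspanin of B cells, was 2.55-fold higher there, Ighm, the heavy chain of IgM, 2.19-fold and Cd38, an ectoenzyme, 2.18-fold. The signaling genes Lyn and Plcg2, named after their values were seen, had PT means of 1620 and 1717 there. Their log2 ratios were 0.24 and -0.56. Tnfrsf13c, Fcmr, Pou2af1, Ebf1 and Btk, with lower PT means there, are named in the same way. In that order they had log2 ratios of -0.18, 0.04, 0.01, -0.31 and 0.60. How much of the RNA of this list came from B cells was not tested, so its median is not read as one of B cells. In Her2 3 of 17 were at least 2-fold higher, among them the coactivator Pou2af1 (18.4 and 53.9, 2.93-fold), while Bank1 was 1.62-fold higher and Ebf1, a factor of B cells and of adipose stroma, was at 153 and 80.3 (0.525-fold).

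In C3Tag 4 of 18 were at least 2-fold higher, Cd38 by 3.37-fold and the kinase Syk by 2.47-fold among them. There 1 was at least 2-fold lower, the receptor Cd72 (216 and 101, 0.466-fold). Ighm, Ighd, Fcer2a and Tnfrsf13c in C3Tag are named after their values were seen. Ighm was higher (log2 0.62), and Ighd (-0.47), Fcer2a (-0.25) and Tnfrsf13c (-0.08) were lower. In BALB 1 of 14 was at least 2-fold higher and 1 lower, Ebf1 at 75.6 and 18.5 (0.245-fold), with Pou2af1 at 0.677-fold and Syk at 1.43-fold. In SEAGN 2 of 15 were higher, among them the IgE receptor Fcer2a (8.01 and 18.5, 2.31-fold), and 1 was lower, again Ebf1 (97.7 and 21.7, 0.222-fold). Ighm was 1.68-fold higher in SEAGN.

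The light chain constant region Igkc, made in large amounts by plasma cells, was the gene of this list with the largest ratio in every table, 8.15-fold in Her2, 12.0-fold in C3Tag, 5.27-fold in BALB, 10.5-fold in SEAGN and 10.3-fold in the AKR-named table. Its means in C3Tag were 4038 in PT and 48303 in Lung met. Igkc was therefore past 2-fold in all 5 tables.

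**Figure D3:**
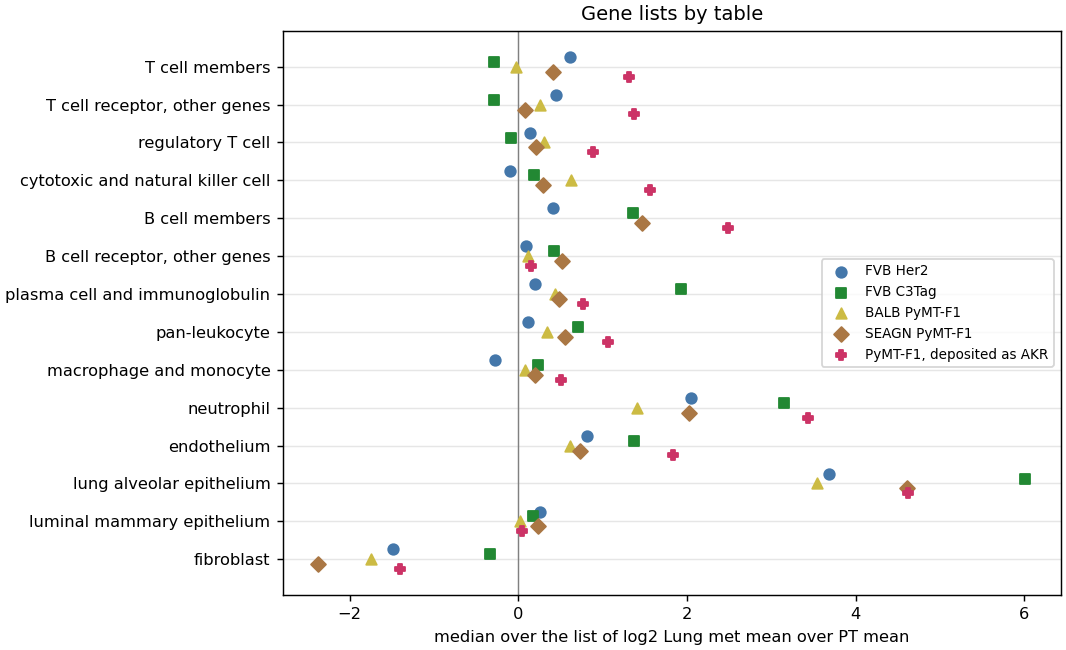
Median over each gene list (rows) of the log2 of the Lung met mean over the PT mean, 1 symbol per table, with no error available. The AKR-named table stands to the right for the T cell members (1.31, beside -0.29 to 0.61 elsewhere) and for the other T cell receptor genes (1.37). It also does so for the B cell members (2.49) and the regulatory T cell (0.89), cytotoxic (1.56) and pan-leukocyte (1.06) lists. The macrophage (0.51), neutrophil (3.43) and endothelium (1.83) lists are alike in this. It does not for the other B cell receptor genes (0.15) or the lung alveolar genes (4.62, beside 6.01 in C3Tag). Each median covers only the genes its table lists, so the sets differ between tables. Of the T cell members only Cd4 and Lck had means in all 5 tables. For Cd4 the AKR-named table (log2 0.55) was not above Her2 (0.61), and for Lck it was the highest (1.11). The median of the other B cell receptor genes is not read as one of B cells.

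Markers of other cells were also higher in Lung met in part of the tables. The pan-leukocyte list (8 genes, all listed in every table) had a median log2 ratio of 1.06 in the AKR-named table, 0.71 in C3Tag, 0.55 in SEAGN, 0.33 in BALB and 0.12 in Her2. Laptm5, a lysosomal protein of leukocytes, had the largest mean over PT and Lung met of this list in the AKR-named table and in Her2. Its means were 719 and 1055 in the AKR-named table (log2 0.55) and 818 and 844 in Her2 (log2 0.04). Ptprc, the common leukocyte antigen CD45, is named after its values were seen and had log2 ratios of 0.96 and 0.33 in these tables. The 6 listed T cell members of the AKR-named table summed to a 2.53-fold higher level in Lung met, and the 8 leukocyte genes to a 2.14-fold higher one. In C3Tag the leukocyte sum was 1.80-fold higher while the sum of the T cell members was 0.752-fold, so that there T cell members and leukocyte genes went in opposite directions, and in Her2 the T cell members had a median of 0.61 beside the lowest leukocyte median. The part of leukocyte content in the ratios of the members was not tested.

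Genes of cytotoxic and natural killer cells were also higher in the AKR-named table, 6 of 9 listed by at least 2-fold with a median log2 ratio of 1.56. The chemokine Ccl5, the most abundant of them, had means of 33.5 and 107 (3.20-fold). Medians of this list elsewhere lay between -0.10 in Her2 and 0.62 in BALB. Of the regulatory T cell list 2 of 5 were at least 2-fold higher, with a median of 0.89, while its most abundant gene Tnfrsf18 was at 221 and 200 (log2 -0.15). Its medians in the other tables lay between -0.09 and 0.30.

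Genes of lymph node and tertiary lymphoid tissue were listed in part. Of the 6 listed genes of this list in the AKR-named table, 4 were at least 2-fold higher, with a median log2 ratio of 1.70. Ccl21a, a chemokine that draws lymphocytes into nodes, had means of 113 and 1440 (12.7-fold). Cxcl13, a chemokine of B cell follicles named after its values were seen, was lower there, at 29.9 and 18.5 (log2 -0.69). Elsewhere 2 of 5 were at least 2-fold higher in Her2 (median 0.68), 1 of 5 in C3Tag (0.47), 0 of 2 in BALB (-0.32) and 2 of 4 in SEAGN (0.85). Glycam1, a mucin of node vessels that is also a milk protein, was 46.1-fold higher in Her2, at 219 and 10088. In that table Cd2 was 2.44-fold higher and Lck level. The part of lymphoid tissue in the ratios of the members was not tested.

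Genes of the lung alveolar epithelium were higher in Lung met in all 5 tables. Of the 10 genes 7 were listed in each table, and all 7 were at least 2-fold higher in every table, with median log2 ratios of 3.68 in Her2, 6.01 in C3Tag, 3.54 in BALB, 4.61 in SEAGN and 4.62 in the AKR-named table. In the AKR-named table Sftpd, a surfactant protein, had means of 194 and 9933. Endothelial genes had a median of 1.83 in the AKR-named table, beside 0.61 to 1.37 elsewhere, and erythroid genes one of 1.84, beside -0.61 to 2.24. Lung content and blood content cannot be told apart from the metastasis itself in these means, and their part in the ratios of the members was not tested.

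The genes whose pattern over the tables was most like that of the members were as follows. Among 11804 genes compared, those nearest to the median log2 ratios of the T cell members over 5 tables were Reep6, Rnf152, Dapk2, Dlc1 and Tagln, with root mean square differences from 0.143 to 0.241. Nearest to the B cell members over 4 tables were Egflam (0.150), Csf3r (0.152), Rasgrp2 (0.177), Sema3g (0.184) and Itga7 (0.219). The medians covered different members in different tables. Of the B cell members only Cd22 had means in all 4. Its log2 ratios were 0.42 in Her2, 0.65 in C3Tag, 1.47 in SEAGN and 1.37 in the AKR-named table. The medians used there were 0.42, 1.36, 1.47 and 2.49. With so few tables as points, this likeness is a description only.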

How the data were processed

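RNA from primary tumors and lung metastases of mice was sequenced, and reads were aligned and counted per gene by the authors in Partek Flow. The sources name different genome assemblies (mm9 and mm10 in the methods, mm39 with STAR 2.7.8a and DESeq2 in the submitters' processing notes) and different library kits (a stranded total RNA kit with ribosomal depletion in the labels, TruSeq mRNA chemistry in the methods). The strand setting, the filter and the normalization method are not given in the sources used here. The deposited values used are normalized signal, 1 least-squares mean per tissue and gene, with replicates pooled by the authors. Total counts, and so the depth per sample, are unknown, and no interval or replicate check can be given. The tables also hold the authors' p-values, false discovery rates, ratios and fold changes, which were not used. The Myc table holds only p-values and false discovery rates, and only the presence of a row was taken from it.

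Lung met means were divided by PT means within a table and expressed as log2, with no pseudocount and no filter (Python 3.11.15, pandas 2.3.3, numpy 2.4.6, matplotlib 3.10.9). A difference counted as past the fold at 2 or more in either direction. Tables were normalized separately, and levels were not compared between them. Samples were grouped by title. The formulas for counts, medians and likeness were tried on simulated ratios with planted values, which does not check the script itself. Alternatives were a pseudocount of 1, centering on the median of all genes, a mean level of at least 10, a fold of 1.5, and summed levels in place of medians.

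Members and gene lists were chosen with earlier results of these data known. Genes named besides the members were the 4 per table with the largest log2 ratios, at a mean level of at least 10, from the lists of other T cell receptor and other B cell receptor genes, the most abundant gene of each other list in the table where it is described, and the 5 most like each set of members. For these other lists, most abundant means the largest mean of the PT and Lung met levels, not divided by exon length. Genes named outside this rule are said to be. Some genes that this rule names are not reported here. The other lists held markers of plasma cells, cytotoxic cells, regulatory T cells, leukocytes, lymphoid tissue, alveolar epithelium, endothelium and erythroid cells, and others given in the closing observations.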

Additional observations from a re-analysis of the deposited data

How the results depend on the processing

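No paired analysis was possible because the tables hold only group means, and leaving out single replicates was not possible for the same reason. With no spread between samples, a value counted as changed here when it crossed the 2-fold line, and a count when it moved by more than 1.5 times. Under a pseudocount of 1 and under centering on the median of all genes, each of the 29 log2 ratios stayed on its side of the 2-fold line, and so did each median and count. The largest shift was 0.51 with the pseudocount and 0.03 with the centering. Medians replaced by summed levels also kept their side. With a fold of 1.5, the count of higher members was 3 in Her2 and 1 in BALB, and that of lower members in C3Tag was 1. With a mean level of at least 10, 1 member was counted as higher in SEAGN.

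Centering on the median of the pan-leukocyte list, chosen after seeing the data, changed more. The count of members at least 2-fold higher became 4 in the AKR-named table, 0 in C3Tag and 0 in SEAGN, and that of members at least 2-fold lower in C3Tag became 2. The median log2 ratio of the T cell members became 0.25 in the AKR-named table, 0.49 in Her2 and -1.001 in C3Tag. Under this centering the AKR-named table thus no longer had the highest T cell median. The median of the B cell members became 0.65 in C3Tag and 0.91 in SEAGN. Of the 29 single ratios 19 kept their side of the line, 8 fell inside it and 2 passed it. The sign turned for 6, among them Cd4 in the AKR-named table (-0.51) and Cd22 in C3Tag (-0.06), and the median of the T cell members in SEAGN turned to -0.14. The shift is the list's own median in each table, by construction. Depth is unknown, so which low means are reliable cannot be said.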

Other observations

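Neutrophil genes were higher in Lung met in each table, with median log2 ratios of 2.05 in Her2 (3 of 5 listed at least 2-fold higher, 1 lower), 3.15 in C3Tag (6 of 6), 1.41 in BALB (3 of 5), 2.02 in SEAGN (5 of 6) and 3.43 in the AKR-named table (6 of 6). In C3Tag Cxcr2, a chemokine receptor of neutrophils, had means of 46.2 and 1615, in the table where 3 of 4 T cell members were lower in Lung met. S100a9, an alarmin of neutrophils, had means of 161 and 4539 in the AKR-named table. Macrophage and monocyte genes had smaller medians, from -0.28 in Her2 to 0.51 in the AKR-named table, although Lyz2, their most abundant gene, was 1.76-fold to 5.58-fold higher.

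Plasma cell and immunoglobulin genes had their highest median in C3Tag, 1.92 with 5 of 8 listed at least 2-fold higher, where the heavy chain Ighg1 had means of 2999 and 35160. In the AKR-named table the median was 0.77 with 2 of 7, and in the others it lay between 0.20 and 0.48, also with 2 of 7 each. Igha, the heavy chain of IgA, and Jchain, which joins IgA subunits, are named here after their values were seen. Igha was 7.15-fold higher in the AKR-named table and 12.1-fold in C3Tag, and Jchain 5.36-fold and 9.75-fold.

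Among the other lists, fibroblast genes had medians from -2.37 in SEAGN to -0.34 in C3Tag, and Col3a1, a fibrillar collagen, was 0.388-fold in the AKR-named table. Skeletal muscle genes had medians from -4.94 in C3Tag to -3.25 in SEAGN but 0.95 in the AKR-named table, where Mylpf was at 20.3 and 21.2. Airway epithelium had medians from 0.26 in BALB to 1.88 in the AKR-named table, where Tppp3 was 3.67-fold higher. Adipocyte genes lay between -1.32 in SEAGN and 0.66 in C3Tag, and Fabp4 was 0.151-fold in SEAGN. Luminal mammary genes had medians between 0.02 and 0.25, with Krt18 at 27630 and 29027 in the AKR-named table. Proliferation genes had medians between -0.58 in C3Tag and 0.33 in SEAGN, with Mki67 at 28933 and 17359 in C3Tag.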
